A study of Rattus norvegicus with 18 samples.

Results

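The SMAD family was followed here in rat spinal cord material: 8 genes, Smad1, Smad2, Smad3, Smad4, Smad5, Smad6, Smad7 and Smad9, measured by 20 of the 31042 probe sets tested. Members were all probe sets whose symbol in the platform annotation was 1 of these 8. Smad2 had 1 probe set, Smad1, Smad3, Smad4 and Smad9 had 2 each, Smad7 had 3, and Smad5 and Smad6 had 4 each. The series holds 18 Affymetrix arrays of total RNA labelled as rat spinal cord. The control group has 6 arrays, and its label names no addition and no time. The BMP group has 6 arrays of material with bone morphogenetic protein added at 10 ng/mL, and the CNTF group has 6 of material with ciliary neurotrophic factor added at 10 ng/mL, each marked 4d, read as 4 days. The labels do not say when the controls were taken relative to the treated material. All 18 labels also carry the entry "14 NT", which was not interpreted, and no label gives the BMP family member, the strain, the age or the cell type. A number from 1 to 6 in each title occurs once per group, and arrays are named by group and number. No label says whether the arrays of a group trace back to different cultures or different animals. The p-values therefore describe the scatter of these arrays only, and some of it may be technical.

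SMAD proteins carry signals of the TGF-beta ligand family from receptor to nucleus. Receptor-activated SMADs are phosphorylated at their C terminus, Smad1, Smad5 and Smad9 by BMP receptors and Smad2 and Smad3 by TGF-beta and activin receptors. They then bind Smad4, the shared partner, and enter the nucleus, while the inhibitory Smad6 and Smad7 block the receptors and mark them for destruction and are themselves induced by the pathway. In the developing spinal cord, BMP signals pattern the dorsal side and steer glial precursors away from the oligodendrocyte fate and towards astrocytes. CNTF acts through another route, gp130 and STAT3. The arrays report mRNA, so SMAD phosphorylation was not measured.

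Of the 8 genes, Smad9 and Smad5 separated the additions. Both were higher with BMP than with CNTF, Smad9 by 2.06 ± 0.35 and Smad5 by 0.61 ± 0.17 on the log2 scale (mean difference ± standard error, 6 arrays per group). The SMAD genes of the TGF-beta branch, the shared Smad4, Smad1 and the inhibitory Smad6 and Smad7 were not called in any comparison in the fit by group alone. With the title number as a block (here "the block"), Smad2, Smad3 and 1 dim Smad6 probe set among these were called for BMP against control. Smad2 was then also called for BMP against CNTF. Against the controls the block called Smad9 and some Smad5 probe sets too, higher with BMP and lower with CNTF. Levels are log2(intensity + 116.655), where the added constant is the table's 20th percentile. Differences are on that scale and understate the change of dim probe sets. Tests were limma's, two-sided, and p-values were adjusted by Benjamini-Hochberg across the 31042 probe sets. "Called" means an adjusted p under 0.05 in the fit by group alone unless the block is named. The brightest probe set stood for a gene. Levels are compared between groups for 1 probe set at a time and never between probe sets.

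The upstream sequences of Smad9 and Smad5, the members that were called, are shown because BMP-activated SMADs are known to bind GC-rich elements with the core GGCGCC. Each is the stretch of 250 bases before the RefSeq start site, 5′ to 3′ on the gene's strand, in rat build GRCr8. The Smad9 window is chr2:141106418-141106667 on the plus strand and the Smad5 window is chr17:7882609-7882858 on the minus strand. Capitals mark GGCGCC.
Smad9: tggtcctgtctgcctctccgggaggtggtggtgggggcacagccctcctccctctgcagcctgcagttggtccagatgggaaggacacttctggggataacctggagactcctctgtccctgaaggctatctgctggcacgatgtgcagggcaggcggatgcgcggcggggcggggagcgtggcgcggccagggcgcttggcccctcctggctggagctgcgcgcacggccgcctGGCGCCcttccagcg
Smad5: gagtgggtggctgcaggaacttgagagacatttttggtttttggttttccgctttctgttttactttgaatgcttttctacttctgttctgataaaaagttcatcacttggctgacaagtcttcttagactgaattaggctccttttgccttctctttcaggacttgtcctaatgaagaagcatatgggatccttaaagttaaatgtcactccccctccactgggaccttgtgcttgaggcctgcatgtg
The Smad9 window held 1 GGCGCC, starting 15 bases before the start site, and the Smad5 window held 0. The share of G and C was 70.0% in the Smad9 window and 42.8% in the Smad5 window. GGCGCC reads the same on both strands and was present in 8.7% of 33465 windows of this length. Of the 8 members, 7 had a window in the table (8 windows, since Smad2 had 2), and Smad2, Smad7 and Smad9 held GGCGCC. The short SMAD-binding letters GTCT, searched on both strands as GTCT and AGAC, occurred in 84.1% of all windows and in those of 6 members. The palindrome GTCTAGAC, which contains GTCT, was present in 0.173% of all windows and in 0 of the members' 8. The letters TTCNNNGAA, a STAT core searched on both strands, were present in 7.67% of all windows and in 0 of the 8. These are matches of letters and not measured binding sites. In the same RefSeq annotation, Smad3 and Smad6 are neighbours with 0 protein-coding genes between them.

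Smad9, the third BMP-activated SMAD (also known as Smad8), had the largest difference of the 8 genes in each comparison. Its brightest probe set, 1393262_at, read 10.39, 10.15, 10.62, 11.21, 11.71 and 12.07 in controls 1 to 6. With BMP it read 12.59, 11.53, 11.32, 12.89, 12.03 and 12.66 in the same order. With CNTF it read 9.33, 9.90, 9.67, 10.53, 10.21 and 11.02. Within every title number the order was the same, with BMP highest, the control in the middle and CNTF lowest (6 of 6). The BMP and CNTF groups did not overlap, while the controls, whose range was wide, overlapped with both.

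Between BMP and CNTF the Smad9 difference of 2.06 was 4.17-fold (limma adjusted p = 0.00132, higher in 6 of 6 numbers). It ranged from 1.63 to 3.26 over the title numbers. Adjusted p stayed between 0.000949 and 0.00397 when any 1 array was left out. Against the controls, Smad9 was 1.15 ± 0.35 higher with BMP (2.21-fold, interval 0.41 to 1.88), and adjusted p = 0.0593 missed the threshold. The differences for numbers 1 to 6 were 2.20, 1.38, 0.70, 1.68, 0.33 and 0.59. With the block it passed (adjusted p = 0.00171). It also passed when control 6 (0.028), control 5 (0.046) or BMP array 3 (0.0404) was left out, when dim probe sets were left out (0.0445) and with the table median as the constant (0.0485). In the other 15 of the 18 fits without 1 array it was not called (adjusted p up to 0.137). Besides the fits without 1 array, 4 of 14 alternatives called it, the block included (adjusted p up to 0.209). With CNTF, Smad9 was 0.91 ± 0.35 lower (-0.91, lower in 6 of 6 numbers, adjusted p = 0.265), a difference the block fit called at an adjusted p of 0.0156. The interval for CNTF ran from -1.65 to -0.18. The second Smad9 probe set, 1370716_at, was dim, with 11 of 18 arrays below the constant. It differed by 0.53 ± 0.28 with BMP, by 0.05 ± 0.28 with CNTF and by 0.48 ± 0.28 between them, and was not called (adjusted p = 0.337, 0.984 and 0.42).

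**Figure D1:**
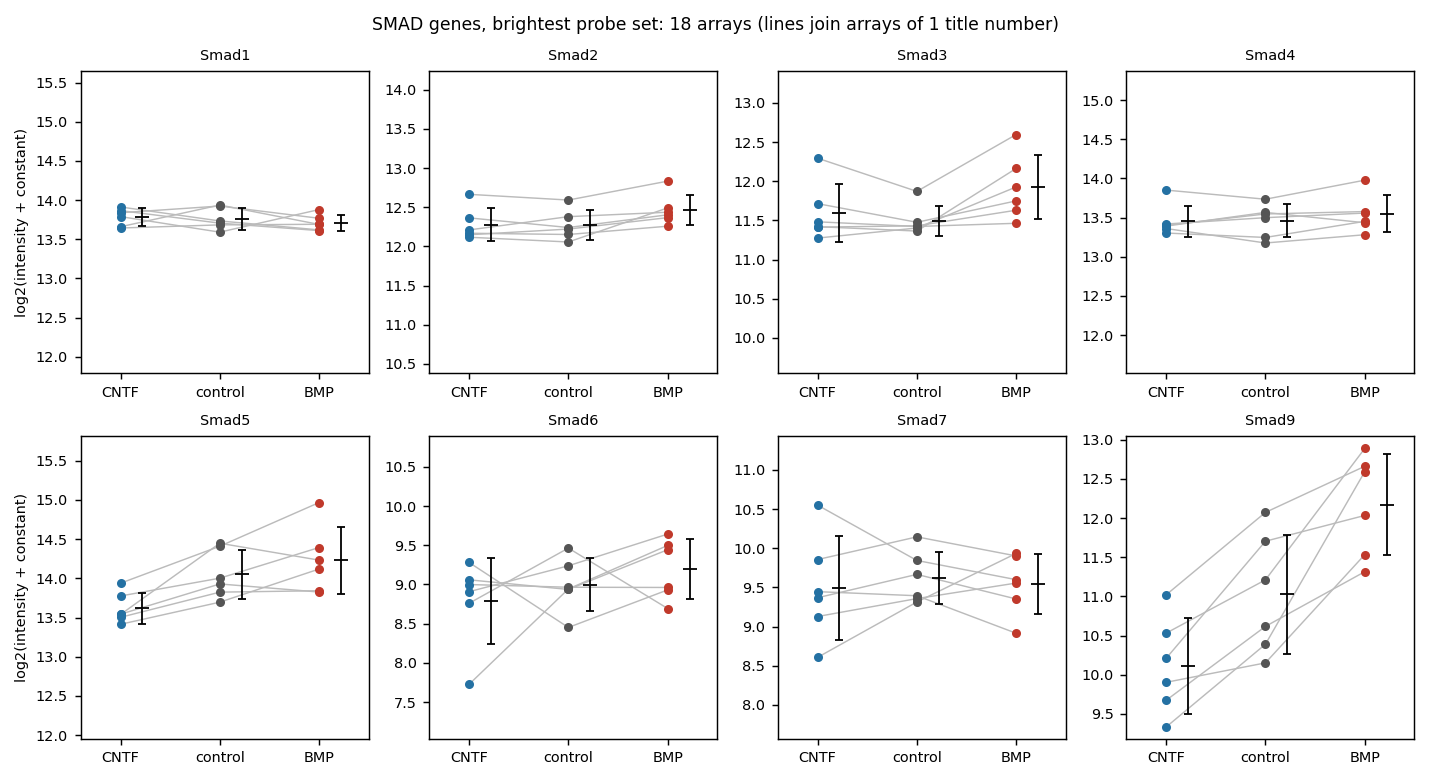
Level of the brightest probe set of each SMAD gene on 18 arrays, as log2(intensity + constant), by group. Points are arrays, grey lines join the arrays of 1 title number, and bars give the mean ± SD of 6 arrays; every panel spans the same log2 range. Over the 3 positions the Smad9 lines climb from CNTF through control to BMP in 6 of 6 numbers, and the Smad1 and Smad4 lines stay nearly level.

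Smad5, another BMP-activated SMAD, was higher with BMP than with CNTF in all 4 of its probe sets. The brightest, 1388524_at, lay at 14.05 ± 0.31 in the controls, 14.23 ± 0.42 with BMP and 13.62 ± 0.20 with CNTF (mean ± SD, n = 6). The 4 differences between BMP and CNTF were 0.61 ± 0.17, 0.76 ± 0.18, 0.65 ± 0.12 and 0.77 ± 0.17 for 1388524_at, 1390373_at, 1378255_at and 1369276_at (limma adjusted p = 0.0375, 0.0114, 0.00201 and 0.00757). Each was higher in 6 of 6 numbers, and the groups did not overlap in the last 3. The probe sets of 1 gene share their RNA and are not separate evidence. For the brightest probe set the call was lost when BMP array 1, 4 or 5 was left out (adjusted p = 0.0782, 0.0633 and 0.0637) or CNTF array 2, 3, 5 or 6 (0.0702, 0.0714, 0.0745 and 0.0885), which left Smad9 as the 1 gene called. A fit of only the groups compared (0.0516) or without the intensity trend (0.0569) lost it too. Leaving out all arrays of title number 1, 2, 3, 5 or 6 also lost it (adjusted p up to 0.107). The other 3 kept their call in each of the 18 fits without 1 array.

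Against the controls, the Smad5 probe sets split. Probe set 1369276_at read 10.84, 10.88, 10.70, 10.96, 10.57 and 10.66 in controls 1 to 6 and 11.73, 11.05, 11.21, 12.08, 11.11 and 11.38 with BMP. All BMP arrays lay above all controls, a rise of 0.66 ± 0.17 (1.58-fold, limma adjusted p = 0.0223, and 0.0578 without BMP array 1). Besides the fits without 1 array, 11 of 14 alternatives kept this call (adjusted p up to 0.0801). With CNTF the same probe set lay at 10.66 ± 0.29, a difference of -0.11 ± 0.17 (adjusted p = 0.916). Probe set 1390373_at moved likewise, by 0.60 ± 0.18 with BMP (adjusted p = 0.0495) and -0.17 ± 0.18 with CNTF (0.848). That BMP call lay at the threshold. It was lost without BMP array 1, 2 or 4, control 2, 3, 5 or 6, or CNTF array 1, 2, 3, 4 or 6 (adjusted p from 0.0537 to 0.121). Scaling to the 75th percentile (0.0583), fitting only the groups compared (0.0884) and moderation without the trend (0.0642) lost it as well. Besides the fits without 1 array, 5 of 14 alternatives kept it (adjusted p up to 0.132).

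The other Smad5 probe sets went the other way round. Probe set 1378255_at read 12.11, 12.18, 11.92, 12.18, 12.17 and 12.07 in the controls and 11.85, 11.66, 11.56, 11.66, 11.29 and 11.63 with CNTF. All CNTF arrays lay below all controls, a fall of 0.49 (-0.49 ± 0.12, adjusted p = 0.0288). The call was lost without control 1, 2, 4, 5 or 6 or CNTF array 3, 5 or 6 (adjusted p from 0.0505 to 0.081). Besides the fits without 1 array, 10 of 14 alternatives kept it (adjusted p up to 0.163). With BMP the same probe set differed by 0.16 ± 0.12 (adjusted p = 0.54). The brightest, 1388524_at, differed by -0.43 ± 0.17 with CNTF, lower in 6 of 6 numbers (adjusted p = 0.285, and 0.0149 with the block), and by 0.18 ± 0.17 with BMP (0.662). Whether Smad5 is described as higher with BMP or lower with CNTF therefore depended on the probe set, while the difference between the additions did not.

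**Figure D2:**
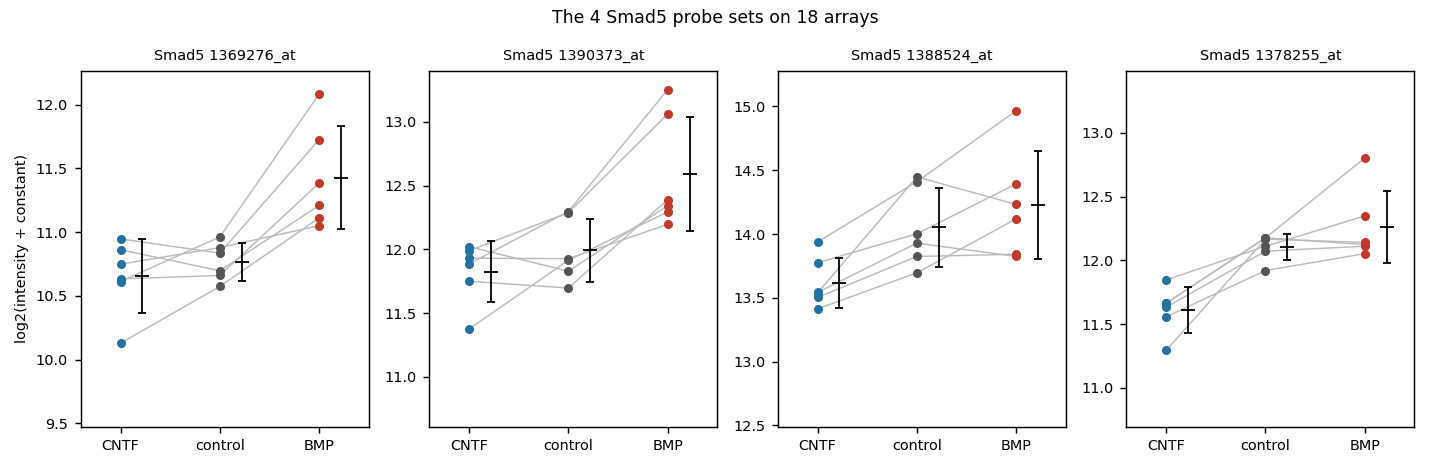
Levels of the 4 Smad5 probe sets on 18 arrays, as log2(intensity + constant), by group; points are arrays, grey lines join arrays of 1 title number, and bars give the mean ± SD of 6 arrays. In the left pair (1369276_at and 1390373_at) the BMP array is the highest within each of the 6 title numbers. CNTF differs from control there by -0.11 and -0.17. In the right pair (1388524_at and 1378255_at) the CNTF array is the lowest within each of the 6 title numbers, and BMP differs from control by 0.18 and 0.16.

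Smad1, the remaining BMP-activated SMAD, gave no call. Its brightest probe set, 1389373_at, lay at 13.76 ± 0.14 in the controls, 13.71 ± 0.10 with BMP and 13.78 ± 0.11 with CNTF. The difference was -0.05 ± 0.08 with BMP (interval -0.21 to 0.10, adjusted p = 0.792) and 0.02 ± 0.08 with CNTF (interval -0.14 to 0.18, adjusted p = 0.972). BMP arrays were higher than the controls in 2 of 6 numbers and lower in 4. Among the brightest probe sets of the 8 genes, this was the narrowest interval. The second probe set, 1369174_at, differed by -0.01 ± 0.12 and -0.04 ± 0.12.

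Smad2 and Smad3, the SMADs of the TGF-beta and activin branch, lay somewhat higher with BMP in 6 of 6 numbers but missed the threshold. Smad3 (1389127_at) read 11.87, 11.36, 11.40, 11.42, 11.48 and 11.43 in controls 1 to 6 and 12.60, 12.16, 11.93, 11.46, 11.75 and 11.63 with BMP. Control 1 stood above the other controls, and BMP arrays 4 to 6 lay inside the range of the controls. The differences by number were 0.73, 0.80, 0.52, 0.04, 0.27 and 0.20. The mean difference for Smad3 was 0.43 ± 0.18 (1.34-fold, limma adjusted p = 0.197, and 0.0108 with the block). With CNTF, Smad3 differed by 0.11 ± 0.18 (adjusted p = 0.931). A second Smad3 probe set, 1369528_at, lay near the constant at 7.88 ± 0.61, 8.25 ± 0.66 and 7.90 ± 0.66 in the control, BMP and CNTF groups. Smad2 (1368214_at) lay at 12.27 ± 0.19, 12.46 ± 0.20 and 12.28 ± 0.21 in the same order. Its difference with BMP was 0.19 ± 0.11 (adjusted p = 0.415, and 0.036 with the block), and with CNTF 0.01 ± 0.11 (adjusted p = 0.996). Between BMP and CNTF, Smad2 differed by 0.19 (adjusted p = 0.459, and 0.0437 with the block) and Smad3 by 0.32 (0.401, and 0.0512 with the block).

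Smad4, the partner of all receptor-activated SMADs, differed by 0.09 ± 0.12 with BMP (interval -0.16 to 0.34) and by -0.01 ± 0.12 with CNTF (interval -0.26 to 0.24) in its brightest probe set, 1386984_at (limma adjusted p = 0.789 and 0.995). Group levels were 13.46 ± 0.21 in the controls, 13.55 ± 0.24 with BMP and 13.45 ± 0.20 with CNTF. What variation Smad4 had went with the title number. Of its sum of squares over the 18 arrays, 84.5% lay between title numbers and 4.34% between groups. In the second probe set, 1367910_at, the shares were 94.9% and 0.892%. The median probe set of the table had 41.3% between numbers and 13.8% between groups. The brightest Smad9 probe set had 65.0% between groups and 25.4% between numbers, and the 4 Smad5 probe sets had 43.0% to 69.4% between groups.

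The inhibitory SMADs, which the pathway itself induces, were dim and gave no call. Mean levels of all 4 Smad6 probe sets and all 3 Smad7 probe sets lay below the table median of 9.75 in each group. The brightest Smad7 probe set, 1368896_at, read 9.31, 10.15, 9.84, 9.39, 9.36 and 9.67 in the controls, 9.93, 9.90, 9.60, 8.92, 9.56 and 9.35 with BMP, and 8.61, 9.86, 10.55, 9.45, 9.13 and 9.37 with CNTF. The 3 groups overlapped throughout. Smad7 differed by -0.08 ± 0.26 with BMP (interval -0.62 to 0.47, limma adjusted p = 0.926) and by -0.13 ± 0.26 with CNTF (interval -0.67 to 0.42, adjusted p = 0.946). Its other probe sets, 1368897_at and 1368898_at, differed with BMP by -0.06 ± 0.21 and 0.37 ± 0.23 (adjusted p = 0.927 and 0.437).

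For Smad6, the brightest probe set, 1375121_at, ranged from 8.45 to 9.46 in the controls, 8.69 to 9.64 with BMP and 7.73 to 9.28 with CNTF. It differed by 0.20 ± 0.24 with BMP (adjusted p = 0.754) and by -0.21 ± 0.24 with CNTF (adjusted p = 0.87). A dimmer Smad6 probe set, 1394025_at, read 7.79, 8.35, 8.84, 7.61, 8.16 and 8.71 in controls 1 to 6 and 9.23, 8.79, 9.06, 8.66, 9.27 and 8.46 with BMP. It was higher with BMP in 5 of 6 numbers, by 0.67 ± 0.22 (1.59-fold, adjusted p = 0.0829, and 0.0473 with the block). The remaining Smad6 probe sets, 1385928_at and 1377467_at, differed with BMP by 0.32 ± 0.28 and -0.06 ± 0.26 and had 9 and 14 of 18 arrays below the constant. The 95% intervals of the 7 inhibitory SMAD probe sets were 0.883 to 1.15 wide on the log2 scale, beside 0.316 for the brightest Smad1 probe set and 1.47 for the brightest Smad9 probe set.

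**Figure D3:**
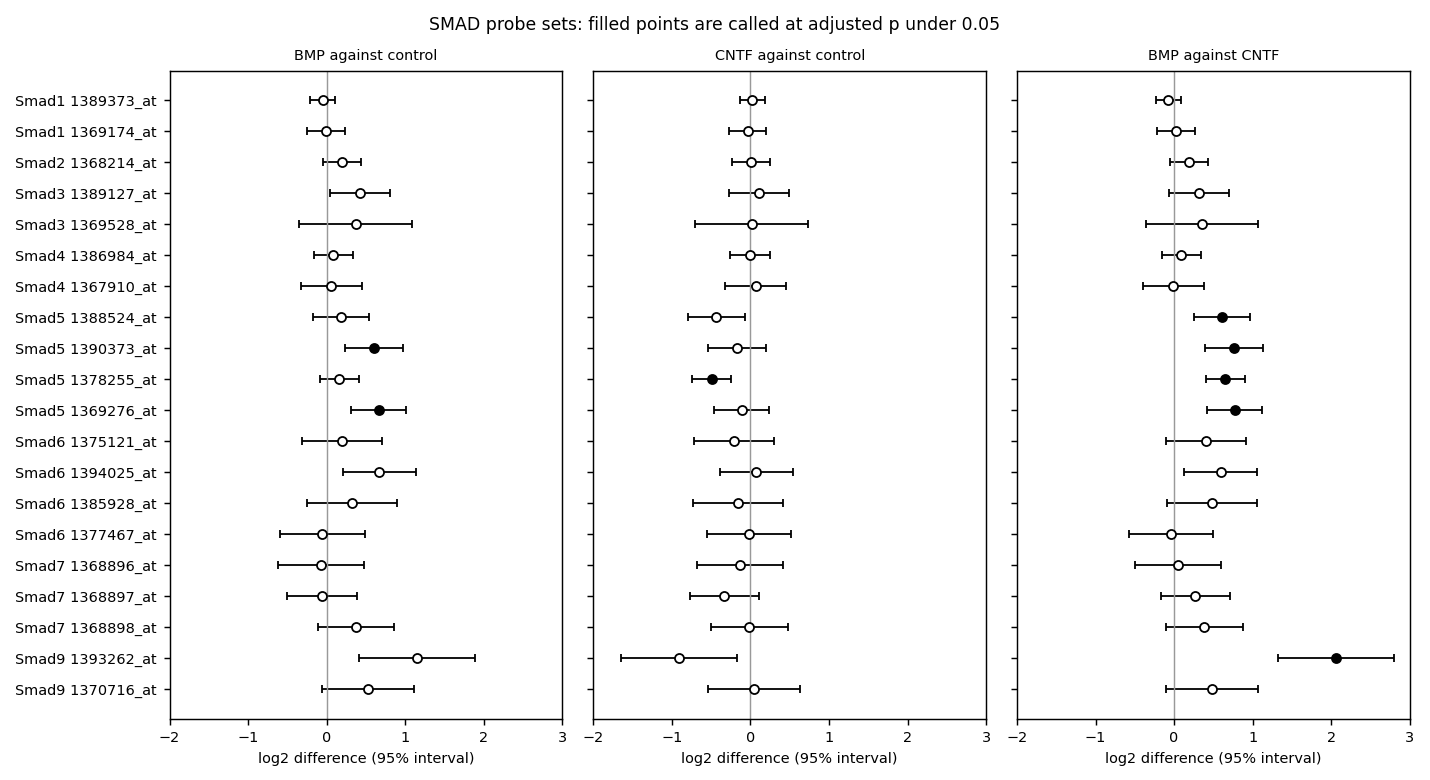
Log2 difference of each of the 20 SMAD probe sets in the 3 comparisons, with limma's 95% interval (not adjusted for the number of probe sets). Filled points were called at an adjusted p under 0.05: 2 Smad5 probe sets for BMP against control, 1 for CNTF against control, and all 4 together with 1393262_at of Smad9 for BMP against CNTF.

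Of all 20 SMAD probe sets, 2 of Smad5 were called higher with BMP than in controls (3.44% of all probe sets were called higher, and 6.01% in either direction). With CNTF 1 of Smad5 was called lower (0.738% of all probe sets lower, 2.32% in either direction). Between BMP and CNTF 5 were called higher with BMP, 4 of Smad5 and 1 of Smad9 (3.24% higher, 6.23% in either direction). The groups did not overlap for 1, 1 and 4 of the 20 in these comparisons, beside 2.83%, 1.97% and 2.95% of all probe sets.

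Counted by the brightest probe set, 0 of the 8 SMAD genes were called for BMP against control, where 7.23% of all 14217 named genes were called. At an unadjusted p under 0.05 there were 2, Smad3 and Smad9, both higher, against 21.2% of all genes, and 0 had groups that did not overlap (3.45%). With the title number as a block there were 3, Smad2, Smad3 and Smad9 (19.9% of all genes). For CNTF against control 0 of 8 were called (2.86% of all genes), 2 at an unadjusted p under 0.05 (Smad5 and Smad9, both lower, 12.9% of all genes) and the same 2 genes with the block (9.47%), and 0 had groups that did not overlap (2.44%). For BMP against CNTF 2 of 8, Smad5 and Smad9, were called, both higher with BMP (7.48% of all genes in either direction, 3.74% higher) and 3 with the block, Smad2 being added (18.2%). The groups of 1 gene, Smad9, did not overlap in that comparison (3.54% of all genes). The direction was the same in 6 of 6 numbers for 3, 2 and 3 of the 8 genes, beside 20.9%, 17.3% and 21.1% of all genes. The median difference over the 8 genes was 0.18 for BMP against control, -0.07 for CNTF against control and 0.25 for BMP against CNTF, beside 0.01, -0.005 and 0.01 over all genes. These comparisons share arrays, so they are not independent of each other.

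Other genes of the pathway were taken from fixed lists, which were chosen with earlier results of these data known. In the BMP comparison, of 21 measured genes listed as BMP-SMAD targets, 3 rose and 0 fell (median 0.37, beside 0.01 for all genes), and with the block 6 rose. The SMAD members themselves are on it: it contains Smad6, Smad7 and Smad9. The risen genes were Bambi, a decoy receptor that lacks a kinase domain (1.50 ± 0.35, limma adjusted p = 0.0139), the transcription factor Atoh8 (0.84 ± 0.22, adjusted p = 0.0295) and Bmper, a secreted BMP-binding protein (1.20 ± 0.34, adjusted p = 0.0404). Each was higher in 6 of 6 numbers. The Atoh8 call was lost without BMP array 1, 2 or 4 or control 3, 5 or 6 (adjusted p up to 0.0722), and that of Bmper without BMP array 1, 2 or 3 or control 1, 3, 4, 5 or 6 (up to 0.107). Id1 and Id3, which encode inhibitors of bHLH factors and are well-known BMP targets, did not pass: Id1 lay at 14.90 ± 0.28 in the controls and 14.40 ± 0.70 with BMP (-0.50 ± 0.30, adjusted p = 0.406), and Id3 at 15.68 ± 0.33 and 15.47 ± 0.63 (-0.21 ± 0.26, adjusted p = 0.755). The other Id genes, named after their values were seen, differed upwards: Id2 by 0.37 ± 0.12 in 6 of 6 numbers (adjusted p = 0.0777, and 0.00279 with the block, with 1 of 2 probe sets called) and Id4 by 0.16 ± 0.23 (adjusted p = 0.788). With CNTF, 0 of the 21 were called (1 higher and 1 lower with the block, median -0.13). There Id1 was at -0.52 ± 0.30 from the controls and Id3 at -0.16 ± 0.26 (adjusted p = 0.572 and 0.921). Bmper, not called with CNTF, lay at 9.16 ± 0.81 there and at 9.15 ± 0.60 with BMP. Its level in the controls was 7.95 ± 0.46, near the constant.

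Among 17 genes listed as targets of TGF-beta and Smad3, 5 rose and 1 fell with BMP (median 1.13), and with the block 10 rose and 1 fell. Only the 5 called genes with the smallest p are named per list, so the fallen gene is not named here. Those risen were the matrix genes Postn, Col1a2, Fn1 and Tgfbi and the matricellular growth modulator Ccn2, by 3.64 ± 0.61, 2.61 ± 0.50, 1.36 ± 0.25, 1.67 ± 0.34 and 3.17 ± 0.76 (adjusted p = 0.00145, 0.00349, 0.00304, 0.0052 and 0.0161). Each was higher in 6 of 6 numbers. With CNTF 2 rose, Fn1 by 1.49 ± 0.25 and the protease inhibitor Timp1 by 2.33 ± 0.38 (adjusted p = 0.00218 and 0.00142), and 0 fell (1 with the block, median 0.10). Acta2, Col1a1, Col1a2, Col3a1 and Tagln also stand in the list of fibroblast and smooth muscle markers, of which 1 of 11 measured genes rose with BMP and 0 with CNTF (5 and 1 with the block, medians 0.96 and 0.43). Their summed intensity over 11 genes ranged from 4890 to 13810 in the controls, from 14063 to 81643 with BMP and from 4357 to 26584 with CNTF, and the part of such cells in the result was not tested.

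Of 33 genes that regulate or partner SMADs, Tgif2 rose and Skil fell with BMP (0 called with CNTF). Both encode co-repressors that bind SMADs. Tgif2 was higher by 0.80 ± 0.16 in 6 of 6 numbers (limma adjusted p = 0.00469), and by 0.96 against CNTF (adjusted p = 0.000973). Skil differed by -0.65 ± 0.18, lower in 6 of 6 (adjusted p = 0.0327), and its call was lost without control 1, 2, 3 or 6 or BMP array 1, 4, 5 or 6 (adjusted p up to 0.0788). With the block 7 of the 33 rose and 4 fell with BMP, and 3 rose and 2 fell with CNTF. The median differences were -0.004 and -0.04.

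Among 11 receptors of the family, Acvr1, a type I receptor for BMPs, rose with BMP by 0.70 ± 0.16 (adjusted p = 0.0131, called in all 3 of its probe sets), and Acvr2b, a type II receptor, fell by 0.32 (-0.32 ± 0.09, adjusted p = 0.0464). The Acvr2b call was lost in 14 of the 18 fits without 1 array (adjusted p up to 0.104) and remained only without CNTF array 1 or 6 or control 3 or 6. With the block 1 receptor rose and 2 fell. With CNTF 0 were called, with and without the block. The median receptor differed by 0.11 with BMP and 0.04 with CNTF. Of 17 genes listed as ligands, 2 rose with BMP: Tgfb2 by 0.49 ± 0.14 (adjusted p = 0.0415, called in both probe sets) and Bmp1 by 0.57 ± 0.12 (adjusted p = 0.00664, called in 1 of 2 probe sets). Bmp1 is a metalloproteinase that matures procollagen and not a TGF-beta family ligand, despite its name. The counts and medians given for this list include it. The Tgfb2 call was lost in 12 of the 18 fits without 1 array (adjusted p up to 0.103) and remained without CNTF array 1, 4 or 5, control 5 or BMP array 4 or 6. With the block 4 ligands rose and 1 fell with BMP, and 0 rose and 1 fell with CNTF, where 0 were called without it. The median ligand differed by 0.49 with BMP and -0.05 with CNTF. The background for these counts is 4.21% of all genes called higher and 3.02% lower with BMP, and 2.03% higher and 0.823% lower with CNTF.

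**Figure D4:**
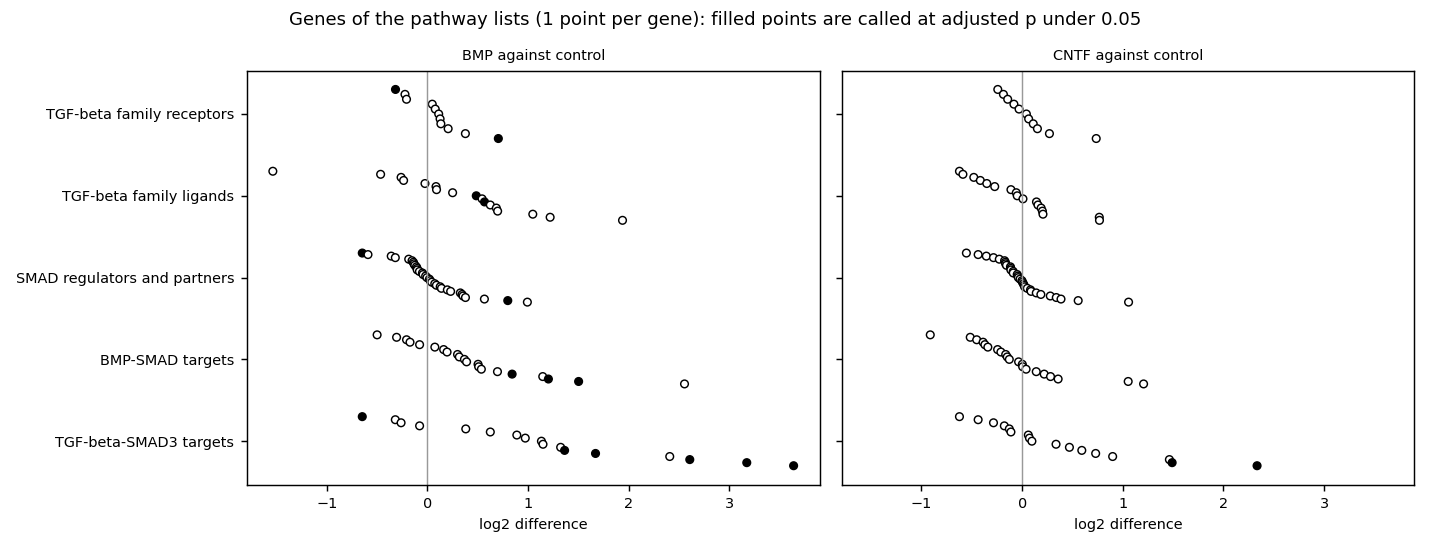
Log2 difference against control of the genes of 5 pathway lists, 1 point per gene (brightest probe set), with BMP on the left and CNTF on the right; filled points were called at an adjusted p under 0.05. The points of the TGF-beta-SMAD3 targets reach furthest to the right with BMP (median 1.13), and receptors and regulators cluster around 0.

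The genes whose levels over the 18 arrays were most like those of Smad9, among 8924 genes at or above the table median, were Flrt2, Selenom and Tmem38a (Pearson r = 0.91, 0.91 and 0.89, Spearman rho = 0.87, 0.89 and 0.89). Selenom lay at 11.06 in the controls, 12.28 with BMP and 10.46 with CNTF. For Smad5 they were Pip4p2, Zfp275 and Npas3 (r = 0.92, 0.91 and 0.89, rho = 0.90, 0.93 and 0.80). The arrays share groups and title numbers, so these values describe likeness and carry no test. With group means removed, r was 0.79, 0.80 and 0.70 for the Smad9 genes and 0.88, 0.87 and 0.93 for the Smad5 genes.

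Cell type markers moved with BMP beside the SMAD differences. All 9 measured oligodendrocyte precursor markers fell with BMP (0 with CNTF, and 1 with the block), and their summed intensity went from 138664 to 188185 in the controls to 29544 to 123270 with BMP and 118795 to 156631 with CNTF. Of 11 oligodendrocyte markers 6 fell with BMP and 0 were called with CNTF (7 lower with BMP, and 2 higher with CNTF, with the block). Their sums were 96804 to 286035, 24135 to 133187 and 121144 to 327794 in the control, BMP and CNTF groups. Of 13 neuron markers 3 rose with BMP and 0 were called with CNTF (7 higher with BMP, and 3 higher and 1 lower with CNTF, with the block), with sums of 63084 to 74513, 66975 to 117213 and 59032 to 84708. Of 11 astrocyte markers 1 rose with BMP and 1 with CNTF (2 higher and 1 lower in each with the block), with sums of 296237 to 397265, 294231 to 420317 and 364827 to 471162. In the controls, 9 of 11 astrocyte, 9 of 9 precursor, 7 of 11 oligodendrocyte and 7 of 13 neuron markers lay at or above the table median. So did 6 of 11 fibroblast and smooth muscle markers and 2 of 7 Schwann cell markers. Of the 14217 named genes, 8924 besides the compared SMAD gene had a mean over all 18 arrays at or above it. Such counts therefore do not show which cell types were present. All 11 microglia and macrophage markers and all 8 endothelial markers lay below the table median in every group, with 0 and 1 called with BMP and 0 with CNTF. Of 7 Schwann cell markers 1 fell with BMP and 1 rose with CNTF, with sums of 19070 to 53640, 16632 to 58182 and 18336 to 51753. Over all genes, 4.21% were called higher and 3.02% lower with BMP, and 19.9% in either direction with the block. The part of these cell types in the Smad9 and Smad5 differences was not tested, and in such bulk material fewer cells of a type and less RNA per cell cannot be told apart.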

How the data were processed

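Per the labels, total RNA of 18 arrays was measured in 3 groups of 6. The authors' deposited values were linear probe set intensities (0.404 to 162940). Neither their summary method nor their scaling is named in the labels used here. The trimmed means of all arrays lay between 2500.7 and 2500.8. The median intensity per array was 666.5 to 817.2, and the number of arrays limits the precision. The deposited normalization was kept because the arrays' 75th percentiles ranged over only 0.0671 (log2; limit 0.3). Of 31099 probe sets, 57 Affymetrix controls were left out. Symbols came from the platform annotation: 20826 probe sets had 1 symbol, 436 several and 9780 none. All 20 SMAD probe sets matched RefSeq (GRCr8) by gene identifier with no symbol changed. limma 3.58.1 in R 4.3.3 fitted 1 mean per group to all 18 arrays, with empirical Bayes moderation and an intensity trend. On simulated arrays with 200 changed probe sets among 31042, set up as BMP against control, it recovered 65% of changes of 1 log2 unit and 98% of 2 units. It also called 16 unchanged probe sets. The simulated scatter was independent between arrays and held no effect of the title number, and changes under 1 log2 unit were not simulated.

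Title numbers paired the arrays: deviations from group means of same-numbered arrays correlated in all 18 pairs (r from 0.12 to 0.49), so a fit with the number as a block is given where it changed a call or a count of calls. Named genes were the 8 members with all probe sets, Id1 and Id3, per list and comparison with control up to 5 called genes with the smallest p, and the 3 genes most like each called member. Members, lists and tests were chosen with earlier results of these data known. Alternatives covered the constant, a filter on dim probe sets, quantile and 75th percentile scaling, the block, 2-group fits, moderation without trend, and leaving out arrays or title numbers.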

Additional observations from a re-analysis of the deposited data

Results flagged for a closer look

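Each of the 60 sets of 6 arrays (20 probe sets in 3 groups) was checked for a single array far from the others, by the ratio of its gap to the range (Dixon's 95% limit for 6 values), and 5 passed, where chance gives about 1 in 20. BMP array 2 was the lowest of its group for Smad1 probe set 1369174_at, at 11.12 where the next array lay at 11.45. Control 1 was the highest control for Smad3 (1389127_at), at 11.87 above 11.48. CNTF array 1 was the highest for Smad4 (1386984_at), at 13.85 above 13.42. The same array was the lowest of its group for Smad6 (1375121_at), at 7.73 below 8.76, and for Smad7 (1368898_at), at 6.98 below 7.71. None of these probe sets was called in any comparison without the block.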

How the results depend on the processing

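Of 1050 values of 33 SMAD differences under the alternatives, 945 kept their direction and their side of the threshold, 51 lost the call, 12 gained it and 42 changed sign. Only differences called in the fit by group alone could lose a call, 2, 1 and 5 in the 3 comparisons, and all 51 losses lay among them. Most of the 945 values belong to differences that were not called, so that count says little about how stable the calls were. Smad9 between BMP and CNTF was called in every alternative run. The title number as a replicate block raised the probe sets called to 5176 for BMP against control, 2349 for CNTF against control and 4686 for BMP against CNTF, and the SMAD genes to 3, 2 and 3; it changed no call of a SMAD gene other than those given with the results. For BMP against control, 1 SMAD gene was called with the table median as the constant and 1 with dim probe sets left out. Every probe set on its own gave 2, 1 and 5 calls in the 3 comparisons. For BMP against CNTF, 1 SMAD gene was called with only those groups fitted, 1 without the intensity trend and 1 when the groups also had to be free of overlap. Leaving out an array or a title number gave 740 to 2097, 366 to 795 and 1111 to 1985 probe sets, and 0 to 1, 0 and 1 to 2 SMAD genes.

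Differences that changed sign were each smaller in size than their standard error in the fit by group alone. An example is Smad6 for CNTF against control, at -0.21 ± 0.24. For CNTF against control, Smad2 was -9e-04 with 75th percentile scaling and Smad4 0.0018 with quantile normalization, and for BMP against CNTF Smad7 was -0.0218 with quantile normalization. Leaving out arrays or title numbers, BMP against control ranged from -0.001 to 0.1398 for Smad4 and from -0.2166 to 0.0484 for Smad7. CNTF against control ranged from -0.0129 to 0.0823 for Smad1, -0.0721 to 0.0687 for Smad2, -0.0336 to 0.1804 for Smad3, -0.0864 to 0.0475 for Smad4, -0.419 to 0.0018 for Smad6, -0.3389 to 0.0497 for Smad7 and -0.2718 to 0.0291 for Id3. BMP against CNTF ranged from -0.205 to 0.2618 for Smad7. Among the pathway genes called with BMP, quantile normalization ended the calls of Atoh8 (adjusted p = 0.0662) and Bmper (0.0547), and the table median as the constant that of Bmper (0.0719). Fitting only the groups compared ended those of Acvr2b (0.0564), Tgfb2 (0.0989) and Atoh8 (0.0501), and moderation without the trend those of Acvr2b (0.0652) and Tgfb2 (0.0555). Leaving out all arrays of a title number ended the call of Acvr1 without number 1 (0.0782), of Bambi without number 1 (0.0811), 2 (0.083) or 6 (0.0526) and of Ccn2 without number 1 (0.0705) or 3 (0.0603). It ended those of Acvr2b, Tgfb2, Skil, Atoh8 and Bmper without each of 5 of the 6 numbers. The cause of these changes was not tested. The filter on dim probe sets removed the brightest Smad6 and Smad7 probe sets and so gave no value for them.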
